A study of Mus musculus with 8 samples.

Results

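The loci of interest here are the microRNA genes Mir223 and Mir142, each read by 1 probe set of an expression array. They were taken as every probe set whose symbol in the authors' deposited gene list holds Mir223 or Mir142. This gave 2 of the 28853 probe sets on the arrays: 10600852, listed under the pair of symbols F630028O10Rik|Mir223, and 10380135, listed as Mir142 alone. The study measured 8 arrays of mouse bone marrow cells. They form 3 knockout groups, KO_MIG, KO_223mut and KO_starmut (genotype mir-223-/-), and the wild-type group WT_MIG, with 2 arrays each, labelled replicates 2 and 3. All donors are C57/BL6 mice. Cells of every group were stimulated for 2 days and transduced with Hoxa9 (in a vector that carries neomycin resistance) and Meis1 (with YFP) on virus producer cells irradiated with 4000 cGy. They were then sorted for YFP and kept in neomycin at 1.4 mg/ml. So the wild-type cells carry both leukaemia-associated transcription factors too. The labels give no age of the mice and do not spell out the vector part of the group names. Mutants of either strand of miR-223 are known from this study, and the authors' list writes the starmut group with an asterisk. On that basis KO_223mut is read here as the vector changed in the guide strand and KO_starmut as the vector changed in the passenger (star) strand. KO_MIG and WT_MIG share the vector label MIG, so by label they differ in genotype alone. KO_223mut and KO_starmut differ from WT_MIG in both genotype and vector label, which cannot be told apart in those comparisons.

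A microRNA is cut from a hairpin in a longer primary transcript, first by Drosha in the nucleus and then, after export by exportin 5, by Dicer in the cytoplasm. One strand of the resulting duplex, the guide, is loaded into an Argonaute protein and pairs through its seed with messenger RNAs, which lowers their translation and stability. The passenger strand is mostly degraded. miR-223 is known as a microRNA of granulocytes and other myeloid cells, where it restrains neutrophil production and activation, and miR-142 as a microRNA of nearly all blood cells, of which both strands are used. At a microRNA locus, an array of this kind is generally taken to read the primary transcript and not the mature microRNA.

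The sequences of both hairpins, from RefSeq on build GRCm38.p6, are given to show which strands the mutant vectors are named for, with the mature strands in capitals. The Mir223 hairpin has 110 bases at chrX:96242817-96242926 on the plus strand. It lies inside the long non-coding RNA F630028O10Rik, 2891 bases after the start of that transcript. The Mir142 hairpin has 64 bases at chr11:87756864-87756927 on the plus strand.
Mir223 hairpin: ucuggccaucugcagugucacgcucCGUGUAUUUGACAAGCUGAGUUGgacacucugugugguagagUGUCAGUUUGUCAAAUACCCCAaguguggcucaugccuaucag
Mir142 hairpin: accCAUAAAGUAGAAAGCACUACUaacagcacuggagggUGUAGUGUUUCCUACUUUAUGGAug
Folding with RNAfold gave a predicted minimum free energy of -44 kcal per mol for the Mir223 hairpin, with 80 of its 110 bases paired, and of -26.9 kcal per mol for Mir142, with 44 of 64 bases paired. In the predicted Mir223 fold, 19 of the 22 bases of miR-223-3p were paired and 15 of the 23 bases of miR-223-5p.

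The mature strands are given with the seed, bases 2 to 8, in capitals, because the seed is the stretch by which each would find its targets.
mmu-miR-223-3p: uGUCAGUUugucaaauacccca
mmu-miR-223-5p: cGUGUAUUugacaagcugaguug
mmu-miR-142a-3p: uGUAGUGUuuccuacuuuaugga
mmu-miR-142a-5p: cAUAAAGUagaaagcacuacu
mmu-miR-142b: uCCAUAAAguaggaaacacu
The miR-223-3p strand is the one known as the guide and miR-223-5p the one known as the star strand. RefSeq also lists a hairpin Mir142b on the minus strand, and the whole Mir142 hairpin lies within its complement. All 20 bases of miR-142b are complementary to an unbroken run of miR-142a-3p. The 5 mature sequences had 5 different seeds, and for each of them 0 other mouse entries of the RefSeq table, which holds 1738 mature sequences, had the same seed.

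The promoter of F630028O10Rik is shown because its probe set differed between genotypes, as described below. The 300 bases shown, which reach past the start into the transcript, lie at chrX:96239676-96239975 (GRCm38.p6, plus strand, RefSeq).
F630028O10Rik promoter: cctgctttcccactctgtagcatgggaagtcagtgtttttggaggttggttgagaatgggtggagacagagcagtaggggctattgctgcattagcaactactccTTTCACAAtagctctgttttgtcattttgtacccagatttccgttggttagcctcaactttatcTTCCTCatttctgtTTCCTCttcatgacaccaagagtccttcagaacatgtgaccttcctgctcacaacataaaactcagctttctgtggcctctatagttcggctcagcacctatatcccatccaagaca
Capitals mark matches to 2 motifs searched on both strands, which do not overlap here. The core of the element of PU.1 and other ETS factors, GAGGAA, matched 2 times, at positions -81 to -76 and -67 to -62 from the start. At least 1 match is present in 28.3% of 32851 mouse promoters of the same length, and the share with 2 matches was not counted. The C/EBP motif TTNNGNAA matched 1 time, at -145 to -138, and is present in 40.7% of them. PU.1 and C/EBP factors are known as myeloid regulators of miR-223, and whether they bind here was not measured.

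The values are log2 signals centred by the authors, so that every probe set has a median of 0 over the 8 arrays. Only differences between arrays can be read from them, so the loci cannot be ranked against each other, and the tissue cannot be checked by the presence or absence of markers. Array medians lay between -0.0126 and 0.0109, and 9 cells were blank, all in KO_starmut replicate 3 and none at these loci. The arrays of a group are called biological replicates, with no statement on mice or cultures. The p-values therefore cover array-to-array spread alone, which may be technical, and the number of arrays limits the precision. The list that supplies the names was selected by the authors with an uncorrected p over the 4 groups, which in the authors' deposited table is 0.0148 for Mir223 and 0.0429 for Mir142. Some difference between groups is therefore a condition for being named here. The tests below are adjusted over all 28853 probe sets, named or not.

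The Mir223 probe set was higher in the knockout arrays than in the wild-type arrays, by about the same amount in each knockout group. It read -0.01 and 0.14 in KO_MIG, 0.01 and 0.04 in KO_223mut and -0.08 and 0.15 in KO_starmut, against -0.98 and -1.07 in WT_MIG. All 6 knockout arrays thus lay within a narrow band above both wild-type arrays, without overlap, as did 6.06% of all probe sets. The group means were 0.07 ± 0.10, 0.02 ± 0.02 and 0.03 ± 0.16 in KO_MIG, KO_223mut and KO_starmut, and -1.02 ± 0.06 in WT_MIG (SD, n = 2 each).

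**Figure D1:**
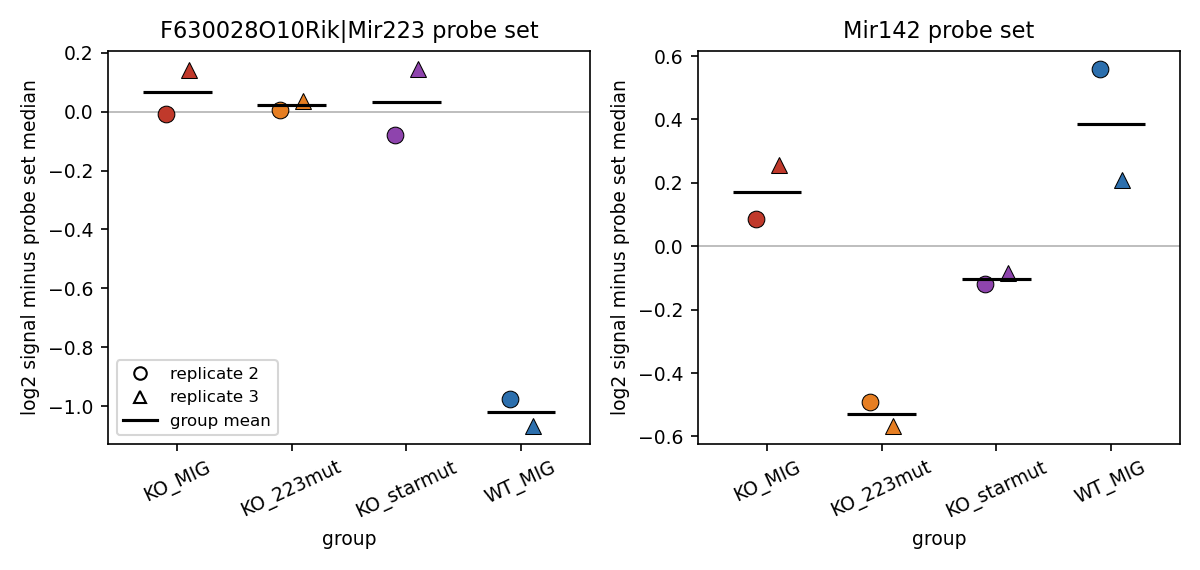
Log2 signal minus the probe set median (vertical axis) of the Mir223 probe set (left) and the Mir142 probe set (right) on the 8 arrays by group, with circles for replicate 2, triangles for replicate 3 and lines for group means. The Mir223 probe set is near 0 in all 6 knockout arrays and near -1.02 in WT_MIG, while Mir142 is lowest in KO_223mut, with a mean of -0.53, and highest in WT_MIG, with a mean of 0.38.

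The rise was 2.09-fold over the 3 knockout groups together (log2 difference 1.06 ± 0.08, SE, 6 arrays against 2, limma adjusted p = 0.00237). In that comparison 0.308% of all probe sets were called higher, and 0.107% had a larger difference in either direction. Taken group by group, KO_MIG was 2.13-fold above WT_MIG (1.09 ± 0.09, limma adjusted p = 0.0104), where 0.052% of probe sets were called higher and 30.3% did not overlap in either direction. For KO_223mut the excess was 2.06-fold (1.04 ± 0.09, adjusted p = 0.00659), with 0.191% called higher, and for KO_starmut it was 2.08-fold (1.06 ± 0.09, adjusted p = 0.00746), with 0.097% called higher. These 3 comparisons share the WT_MIG arrays. Over the 4 groups the moderated F was 63.9 (adjusted p = 0.0198, 0.44% of probe sets called), the 13th largest F of all.

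The group-by-group calls depended on single arrays, although the size moved little. For KO_MIG against WT_MIG, leaving out any 1 of the 4 arrays ended the call, with differences of 1.02 to 1.16 and adjusted p-values of 0.0604 to 0.142. For KO_223mut the call ended without KO_223mut replicate 2 (adjusted p = 0.0543) or replicate 3 (adjusted p = 0.0573), and for KO_starmut without WT_MIG replicate 2 (adjusted p = 0.0557) or replicate 3 (adjusted p = 0.055). The comparison of all knockout arrays with WT_MIG passed without any single array, at adjusted p-values of 0.0051 to 0.0328.

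Signal at this locus was therefore not lower in the arrays labelled knockout. Which stretch of F630028O10Rik or Mir223 the probes read, and which stretch the knockout removes, was not stated in the labels or files. The probe set thus does not check the genotype labels, and its direction rests on them. In bulk RNA, more cells with the transcript and more transcript per cell cannot be told apart.

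Between knockout groups the Mir223 probe set differed by less than the spread of replicates. KO_223mut minus KO_MIG was -0.05 ± 0.09, with a 95% interval of -0.26 to 0.17. KO_starmut minus KO_MIG was -0.03 ± 0.09, with an interval of -0.25 to 0.19, and KO_starmut minus KO_223mut was 0.01 ± 0.09, with an interval of -0.21 to 0.23. All adjusted p-values were 1, and the signs of these differences changed when single arrays were left out. Differences of a size within these intervals could be present and go unseen with 2 arrays per group. The intervals are not adjusted over all probe sets. Since limma called no probe set in these comparisons, larger differences could go uncalled too.

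**Figure D2:**
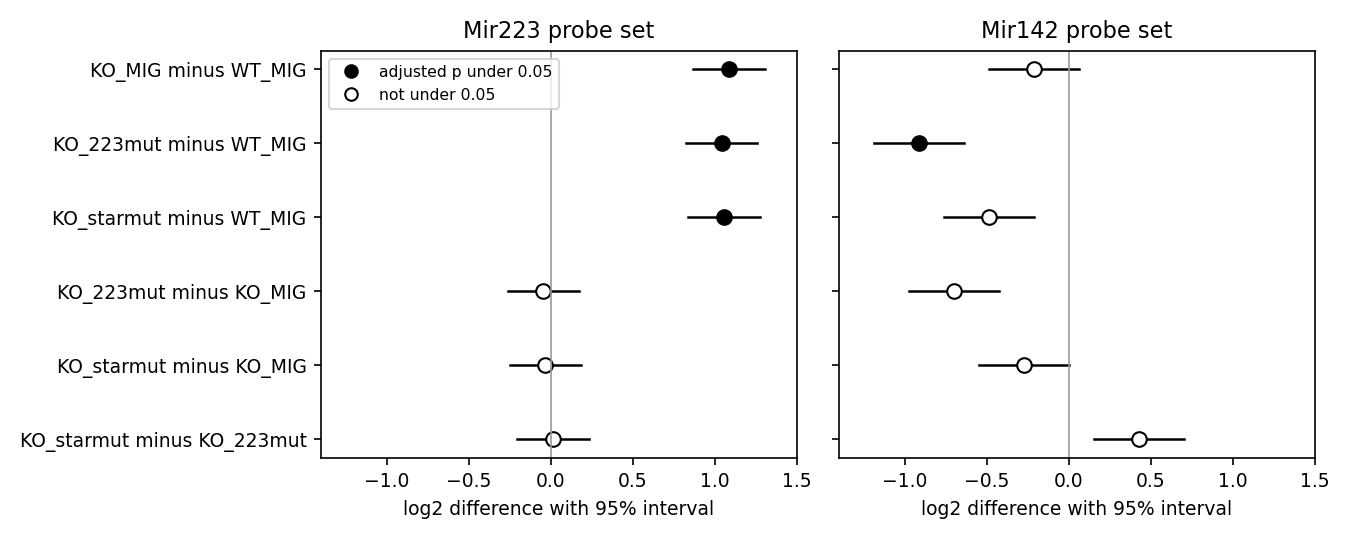
Log2 differences (horizontal axis) with 95% intervals from limma for the 6 pairs of groups, for the Mir223 probe set (left) and the Mir142 probe set (right), with filled points for an adjusted p under 0.05. All 3 differences from WT_MIG are called for Mir223, between 1.04 and 1.09, and for Mir142 only KO_223mut minus WT_MIG is called, at -0.91.

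The Mir142 probe set showed another order. It was lowest in KO_223mut, at -0.49 and -0.57, and next in KO_starmut, at -0.12 and -0.09. KO_MIG read 0.09 and 0.26, and WT_MIG 0.56 and 0.21. The arrays of KO_223mut lay below all 6 others, those of KO_starmut below both other groups, and KO_MIG and WT_MIG overlapped. The share of all probe sets with such an order over the groups was not counted, only shares for pairs of groups. Against WT_MIG, 14.6% of all probe sets were lower without overlap in KO_223mut and 20.2% in KO_starmut. In either direction it was 35.7% in KO_223mut and 36.8% in KO_starmut. Means were -0.53 ± 0.05 in KO_223mut, -0.10 ± 0.02 in KO_starmut, 0.17 ± 0.12 in KO_MIG and 0.38 ± 0.25 in WT_MIG (SD, n = 2 each), so the widest spread was that of the wild-type arrays. Across the 4 groups the within-group SD was 0.141, against a median of 0.0891 over all probe sets.

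Mir142 was 1.88-fold lower in KO_223mut than in WT_MIG (log2 difference -0.91 ± 0.12, SE, 2 arrays per group, limma adjusted p = 0.0166). In that comparison 0.53% of probe sets were called lower, and 0.437% had a larger difference in either direction. Its groups differ in both genotype and vector label. The call ended without KO_223mut replicate 2 (adjusted p = 0.1), without KO_223mut replicate 3 (adjusted p = 0.104), without WT_MIG replicate 2 (-0.74, adjusted p = 0.0549) and with only the 4 arrays of both groups in the fit (adjusted p = 0.0866). KO_starmut gave -0.49 ± 0.12 against WT_MIG (adjusted p = 0.202), and KO_MIG gave -0.21 ± 0.12 (adjusted p = 1, interval -0.49 to 0.06). Without WT_MIG replicate 2 these became -0.31 in KO_starmut and -0.04 in KO_MIG, without WT_MIG replicate 3 KO_MIG became -0.39, and without KO_MIG replicate 2 it became -0.13. Over all 3 knockout groups the difference was -0.54 ± 0.10 (adjusted p = 0.06), and the moderated F over the 4 groups was 22.2 (adjusted p = 0.0768).

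Against the knockout cells of KO_MIG, which share their genotype, KO_223mut read -0.70 ± 0.12 at Mir142, an interval of -0.98 to -0.43. By size this was rank 9 of the 28853 differences in that comparison, yet its adjusted p was 1 and its unadjusted p 0.000412. No probe set was called there by limma (0% called), and 1171 had an unadjusted p under 0.05 (4.06%). No KO_223mut array overlapped with KO_MIG, as in 28.6% of all probe sets in either direction and 13.9% in the lower direction. KO_starmut minus KO_MIG was -0.27 ± 0.12 (interval -0.55 to 0.00146), and KO_starmut minus KO_223mut was 0.43 ± 0.12 (interval 0.15 to 0.70), each with an adjusted p of 1. In these comparisons too limma made 0 calls (0% called), with 1213 and 1358 probe sets at an unadjusted p under 0.05 (4.2% and 4.71%). The arrays did not overlap in either comparison, as in 30.6% and 32.1% of all probe sets counted in both directions. In the direction of Mir142 alone the shares were 19.6% and 10.6%. In the order of the group means, only the lowest and the highest group differed past the threshold, and no pair of neighbours did.

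**Figure D3:**
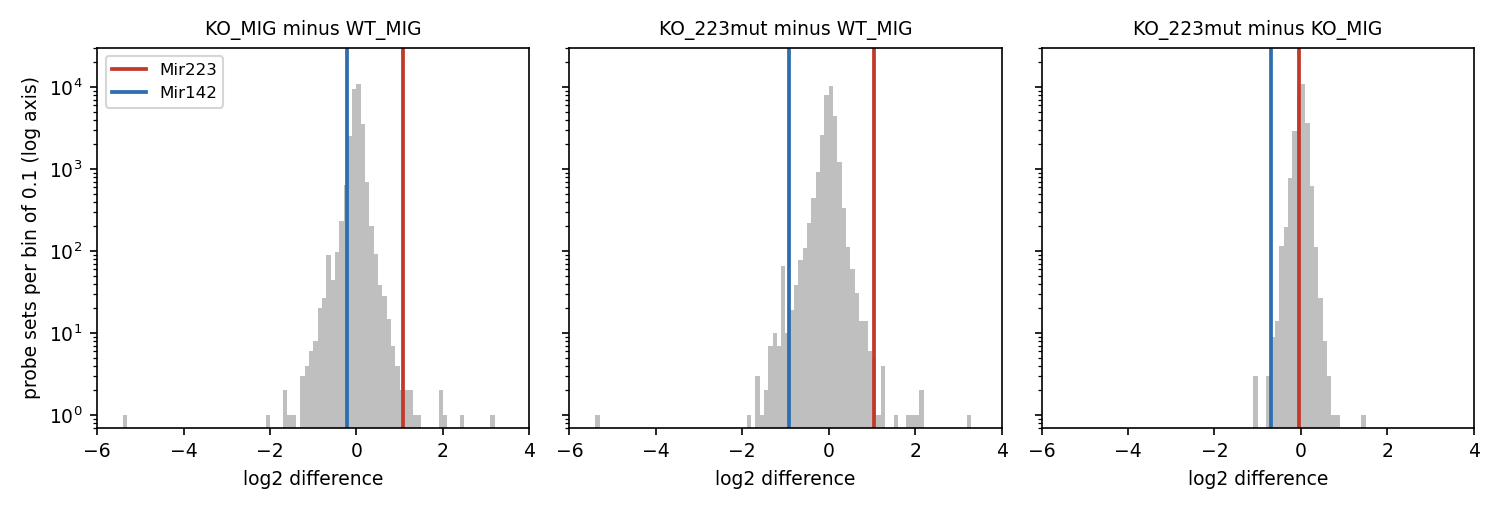
Number of probe sets (vertical, log axis) by log2 difference (horizontal, bins of 0.1) for 3 comparisons over all 28853 probe sets, with lines at the Mir223 and Mir142 probe sets. Mir223 stands in the upper tail in both comparisons with WT_MIG (1.09 and 1.04) and near the middle in KO_223mut minus KO_MIG (-0.05), whereas Mir142 stands in the lower tail in both comparisons of KO_223mut (-0.91 and -0.70).

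The loci did not vary together. Over the 8 arrays their Pearson correlation was -0.599, and over the 6 knockout arrays it was 0.323, with 2 arrays per group sharing a condition. These values are descriptions without a test.

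The genes most like each locus were sought among 1080 or 1081 probe sets with a single symbol in the authors' list, by Pearson correlation over the 8 arrays. That list was selected for differences between these groups, so the values are given as a description. Most like Mir223 were Chi3l1, a secreted chitinase-like protein (r = 0.993), Klhl5, a kelch-repeat protein (0.985), BC028471 (0.979), the membrane protein Tmem47 (0.975) and the WD-repeat protein Wdr61 (0.974). Their sizes differed widely. Over the 3 knockout groups minus WT_MIG, Tmem47 gave a log2 difference of 3.14, Chi3l1 of 2.11, Klhl5 of 0.59, Wdr61 of 0.19 and BC028471 of 0.11. Most opposite were the uncharacterised BC018473 (r = -0.985), the membrane protein Tmem171 (-0.98), Frmd4b (-0.978), glutamine synthetase Glul (-0.978) and the thioredoxin-domain protein Txndc12 (-0.978). In the same comparison their differences ran from -5.35 for BC018473 to -0.64 for Txndc12. The direction of all 10 follows from how they were chosen, so no test is given for them.

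Most like Mir142 were D17H6S53E (r = 0.986), the nuclear envelope protein Sun1 (0.977), the chromatin remodeller Chd7 (0.972), the actin cross-linker filamin A, Flna (0.966), and Mier2 (0.962). In KO_223mut against WT_MIG they gave -0.27 for D17H6S53E, -0.43 for Sun1, -0.34 for Chd7, -0.15 for Flna and -0.39 for Mier2. Each of these differences was smaller than that of Mir142. Most opposite were Pop5, a subunit of the RNA-cutting enzymes RNase P and RNase MRP (r = -0.969), Rnasen, which encodes Drosha (-0.96), the 3′ end processing factor Cpsf4 (-0.958), the ribosome biogenesis factor Bop1 (-0.95) and Polr1d, a subunit shared by RNA polymerases I and III (-0.942). They gave 0.37 for Pop5, 0.19 for Rnasen, 0.14 for Cpsf4, 0.35 for Bop1 and 0.36 for Polr1d in KO_223mut against WT_MIG. The directions of the genes most like and most opposite follow from how they were chosen, so no test is given for them here.

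**Figure D4:**
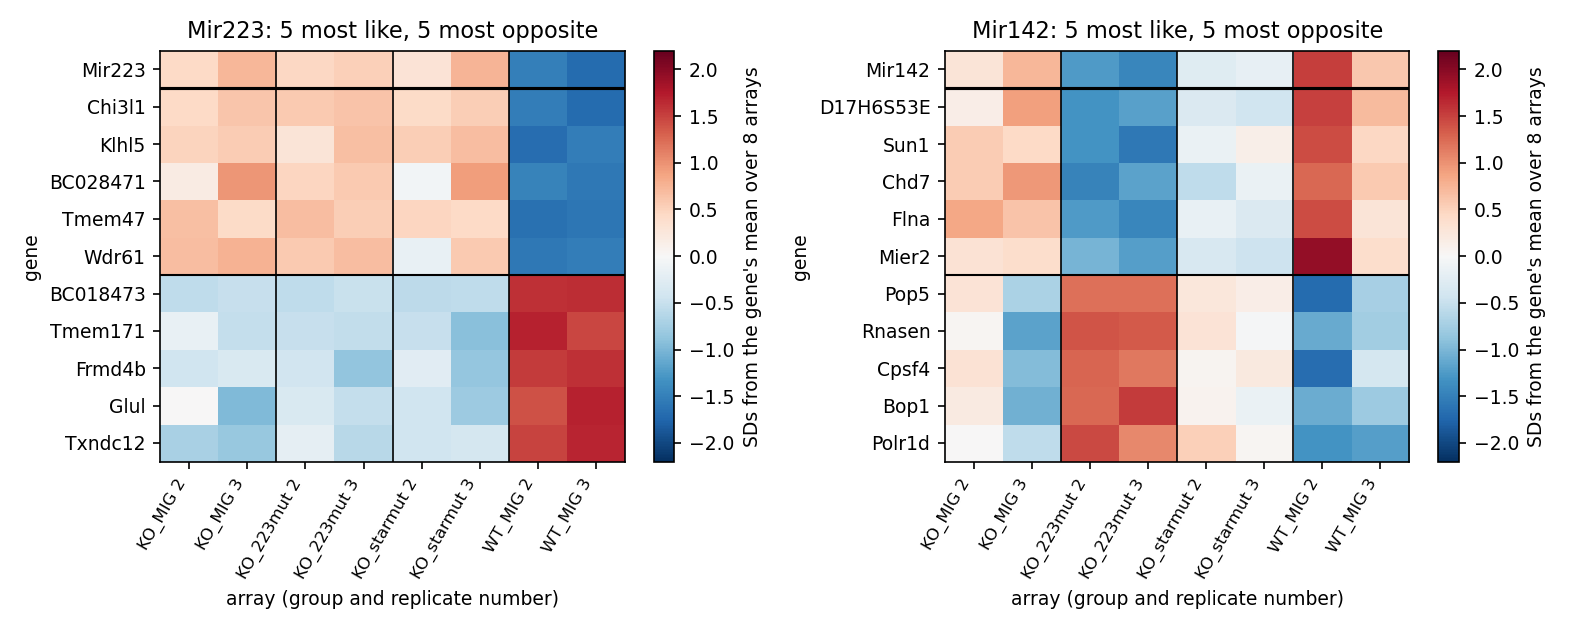
Values of the Mir223 locus (left) and the Mir142 locus (right) on the 8 arrays (columns), above the 5 genes most like each and the 5 most opposite by Pearson correlation, coloured in SDs from each row's own mean. The patterns beside Mir223 separate both WT_MIG arrays from all 6 knockout arrays, and those beside Mir142 separate the KO_223mut arrays from the WT_MIG arrays, while KO_MIG overlaps with WT_MIG at Mir142.

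Among the machinery that makes and serves microRNAs, 4 of 35 listed genes were named in the authors' list, and none was called in any of the 6 pairs of groups. In KO_223mut against WT_MIG all 4 had positive differences, with a median of 0.152 beside 0.0166 over all probe sets. Xpo5, the exportin that carries hairpins out of the nucleus, read 0.09 and 0.15 in KO_223mut, against -0.20 and -0.22 in WT_MIG. These arrays did not overlap, as in 35.7% of all probe sets in either direction and 21.1% in the higher direction. The Xpo5 difference was 0.33 ± 0.06 (limma adjusted p = 0.0906). Rnasen (Drosha) read 0.12 and 0.11 in KO_223mut, against -0.09 and -0.07 in WT_MIG, a difference of 0.19 ± 0.07 (adjusted p = 0.373). It is also among the genes most opposite to Mir142 on these arrays, so its positive direction is no test. Pan3, a subunit of a poly(A)-removing enzyme that Argonaute complexes recruit, gave 0.11 (adjusted p = 0.661). Cnot1, the scaffold of the CCR4-NOT complex of the same pathway, gave 0.02 (adjusted p = 0.977).

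Of 14 listed regulators of Mir223 only Lmo2, a blood cell transcription cofactor, was named. Its differences from WT_MIG were 0.41 ± 0.09 in KO_MIG (limma adjusted p = 0.185), 0.29 in KO_223mut (adjusted p = 0.269) and 0.20 in KO_starmut (adjusted p = 0.592). Lmo2 is also a reported miR-223 target. None of the 10 genes on each side of Mir223 or of Mir142 in the RefSeq order had a name in the list, so neighbouring genes were not followed.

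Reported targets were named for 2 of 19 genes for miR-142 and 5 of 23 for miR-223. Among the miR-142 targets, the circadian transcription factor Arntl (Bmal1) read -0.11 and -0.04 in KO_223mut, against 0.40 and 0.34 in WT_MIG. It fell by 0.45 on the log2 scale there (± 0.07, limma adjusted p = 0.0315). These arrays did not overlap, as in 35.7% of all probe sets in either direction and 14.6% in the lower direction. The call ended without any 1 of the 4 arrays, with differences of -0.479 to -0.416. In KO_starmut Arntl gave -0.44 (limma adjusted p = 0.0578) and in KO_MIG -0.32 (adjusted p = 0.188). Over the 3 knockout groups minus WT_MIG it gave -0.40 ± 0.05 (adjusted p = 0.0167), a call lost in 4 of 11 alternative settings. Mir142 was not called in that comparison (adjusted p = 0.06). KO_starmut minus KO_223mut was 0.005 at Arntl and 0.43 at Mir142, both uncalled. The G protein subunit Gnas gave -0.06 in KO_223mut against WT_MIG (adjusted p = 0.852). The median of both was -0.256. Of the miR-223 targets, the inflammasome sensor Nlrp3 was lower in KO_223mut than in WT_MIG (-0.80 ± 0.09, limma adjusted p = 0.00955), while the median of all 5 was 0.155. The other 4 were uncalled there and positive, at 0.29 for Lmo2, 0.27 for Igf1r, 0.15 for Rasa1 and 0.12 for Sp3. This Nlrp3 call ended without any 1 of the 4 arrays, with differences of -0.867 to -0.737. Over the 3 knockout groups minus WT_MIG Nlrp3 gave -0.52 ± 0.08 (limma adjusted p = 0.0265), a call lost in 5 of 11 alternative settings. In KO_MIG against WT_MIG no miR-223 target was called. Nlrp3 gave -0.46 there, Igf1r 0.46, Lmo2 0.41, Rasa1 0.09 and Sp3 0.06. KO_starmut minus KO_223mut was 0.50 at Nlrp3 and between -0.10 and 0.03 at the other miR-223 targets, all uncalled.

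Of 12 markers of mature myeloid cells 2 were named, and both were lower in KO_223mut than in WT_MIG, the comparison in which Mir142 was lower and in which 0.53% of all probe sets were called lower. Itgam, the integrin chain CD11b of granulocytes and macrophages, read -0.51 and -0.59 in KO_223mut, 0.03 and -0.20 in KO_starmut and -0.03 and 0.03 in KO_MIG, against 0.71 and 0.48 in WT_MIG. In KO_223mut it was thus lower by 1.15 ± 0.10 than in WT_MIG (log2 difference -1.15, limma adjusted p = 0.00659). The lysosomal protein Cd68 read -0.21 and -0.17 in KO_223mut, against 0.31 and 0.28 in WT_MIG, and gave -0.48 ± 0.07 (adjusted p = 0.0252). The Itgam call ended without KO_223mut replicate 2 or 3 (adjusted p = 0.0543 and 0.0573), and the Cd68 call without any 1 of the 4 arrays (adjusted p = 0.0985 to 0.182). Over the 3 knockout groups minus WT_MIG, where Mir223 was higher, Itgam gave -0.81 ± 0.09 (adjusted p = 0.0097) and Cd68 -0.36 ± 0.05 (adjusted p = 0.0324), with 0.607% of all probe sets called lower. There the Itgam call ended without WT_MIG replicate 2 (adjusted p = 0.0672), and the Cd68 call without any 1 of the 8 arrays (adjusted p = 0.0636 to 0.316). The part of mature myeloid cells in the Mir142 and Mir223 differences was not tested. No summed level can be given for these markers because the values carry none.

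No named marker of another cell type was called in KO_223mut against WT_MIG. Of 3 B-lineage genes 2 were named, of which Igll1, a part of the pre-B-cell receptor, gave 0.14 (limma adjusted p = 0.605). The fibroblast genes Dcn and Mmp2, 2 of 6 listed for the producer cells, gave 0.19 for Dcn and 0.14 for Mmp2 (adjusted p 0.339 and 0.645). Cd200r3, 1 of 5 mast cell and basophil genes, gave 0.34 in that comparison (adjusted p = 0.233). In KO_starmut, where Mir142 was not called, Cd200r3 was higher than in WT_MIG by 0.92 (adjusted p = 0.0123). That call ended without KO_starmut replicate 2 or 3 or WT_MIG replicate 2 (adjusted p = 0.0947, 0.0971 and 0.0709). Over the 3 knockout groups minus WT_MIG, where Mir223 was higher, Cd200r3 was higher too, by 0.53 ± 0.08 (adjusted p = 0.0249), with 0.308% of all probe sets called higher. This call stood only without KO_223mut replicate 3 (adjusted p = 0.0319) and ended without any other single array (adjusted p = 0.0523 to 0.234). The part of mast cells and basophils in the Mir223 difference was not tested. No gene of the erythroid and megakaryocyte list or of the general hematopoietic list was named.

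A further 7 probe sets of the authors' list carry the symbol of a microRNA. In KO_223mut against WT_MIG 6 of the 7 had negative differences and none was called. Their range was -0.266 to 0.252 and their median -0.145, beside a median of 0.0166 over all probe sets. All 7 therefore lay nearer to 0 than Mir142 at -0.91 and Mir223 at 1.04. Among the negative ones were Mir23b (-0.27, limma adjusted p = 0.566), Mir22 with its host 2210403K04Rik (-0.25, adjusted p = 0.689), Mir449c (-0.15), Mir26b (-0.14), Mir326 (-0.12) and Mir186 (-0.11). Without WT_MIG replicate 2, Mir23b gave -0.06 and Mir22 gave -0.03, and without WT_MIG replicate 3 both gave -0.47. Without KO_223mut replicate 2 Mir22 gave -0.39, and without KO_223mut replicate 3 it gave -0.11. The positive one was Mir673 (0.25, adjusted p = 0.285). In KO_MIG against WT_MIG the same 7 ranged from -0.231 to 0.118.

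Between the vectors, all 7 had positive differences in KO_starmut minus KO_223mut, as Mir142 had, of 0.00446 to 0.438, and limma called none. The median of the 7 was 0.12, beside -0.0202 over all probe sets. The largest of these differences was that of 2210403K04Rik|Mir22, which read 0.37 and 0.32 in KO_starmut, against 0.05 and -0.24 in KO_223mut. Mir23b read 0.19 and 0.16 in KO_starmut, against -0.22 and -0.17 in KO_223mut, and Mir186 read 0.12 and 0.35 in KO_starmut, against -0.09 and -0.09 in KO_223mut. All 3 were without overlap, and so were Mir26b, Mir449c and Mir326, while Mir673 overlapped. Of all probe sets, 10.6% were higher in KO_starmut without overlap, and 32.1% did not overlap in either direction. For all 7, the authors' list was itself the selection.

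**Figure D5:**
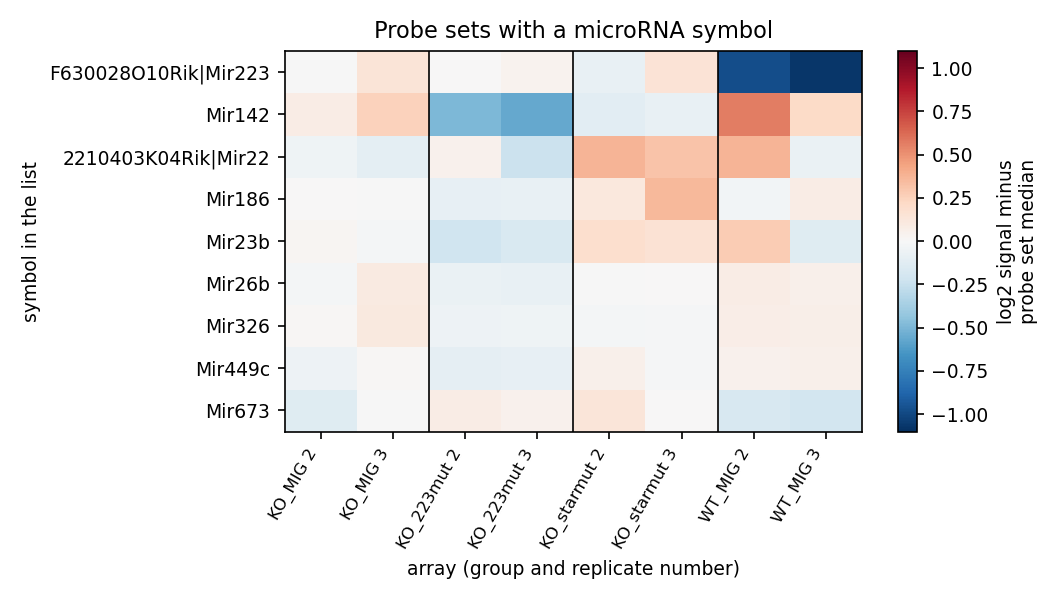
Log2 signal minus the probe set median (colour) of the 9 probe sets with a microRNA symbol in the authors' list (rows) on the 8 arrays (columns, by group and replicate number). The 2 deepest values are those of Mir223 in WT_MIG (-0.98 and -1.07), and Mir142 is low in KO_223mut (-0.49 and -0.57), while the other 7 loci stay within 0.38 of their medians.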

How the data were processed

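RNA of 8 arrays (Affymetrix Mouse Gene 1.0 ST, per the file headers) was compared over 4 groups taken from the sample titles. Per the file headers, the authors summarised signals with RMA16 (annotation release na31, mm9) and deposited log2 values relative to the median of all samples; every probe set median was checked to be 0 within 7e-07. The authors' deposited list gives an uncorrected p-value, a signed fold change (a score), its absolute ratio and a log2 fold change per probe set. Replicates were not pooled.

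The fit of all 28853 probe sets used limma 3.58.1 (R 4.3.3; group means, eBayes, 4 residual and 3.67 prior degrees of freedom), two-sided, Benjamini-Hochberg over all probe sets, threshold 0.05. No filter on dim probe sets was possible on centred values. The fit was tested on simulated data with independent noise on each array, so correlation between same-numbered arrays was not covered. Hairpins were folded with RNAfold 2.7.2. The members and gene lists were chosen with earlier results of these data known. Named genes are the members, the 5 genes most and least correlated with each, other microRNA symbols, listed genes, markers and neighbours. Alternatives were a replicate block, median-centred arrays, only both groups' arrays, robust eBayes and leaving out each array. An exact permutation test of 2 against 2 arrays cannot give p below 0.333 and was not used.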

Additional observations from a re-analysis of the deposited data

How the results depend on the processing

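Whether equal replicate numbers mark paired arrays is not stated. Deviations of same-numbered arrays correlated at 0.36 to 0.533 in the 6 pairs of groups. With the replicate number as a block, Mir142 over the 3 knockout groups passed (-0.54, limma adjusted p = 0.0316), as did its F over the 4 groups (23.8, adjusted p = 0.0388), while no other call at Mir223 or Mir142 changed. With the block the calls over all probe sets became 277 against 39 (KO_MIG against WT_MIG), 732 against 208 (KO_223mut against WT_MIG), 488 against 71 (KO_starmut against WT_MIG) and 1 against 0 (KO_starmut against KO_223mut). With only the 4 arrays of both groups they became 5, 112 and 16 against WT_MIG, and Mir223 lost its call in KO_MIG (1.09, adjusted p = 0.0607) and KO_starmut (1.06, adjusted p = 0.0543), as did Mir142 in KO_223mut (-0.91, adjusted p = 0.0866), with fewer degrees of freedom.

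Without 1 array, where a lone array is assumed to vary like the others, calls against WT_MIG ranged from 4 to 16 in KO_MIG, 8 to 136 in KO_223mut and 19 to 41 in KO_starmut. The Mir223 difference from WT_MIG ranged from 1.02 to 1.16 in KO_MIG, 0.997 to 1.09 in KO_223mut and 0.94 to 1.17 in KO_starmut, and Mir142 in KO_223mut from -1.09 to -0.74. Uncalled differences of Mir223 between knockout groups changed sign, over -0.118 to 0.0281 (KO_223mut minus KO_MIG), -0.145 to 0.0796 (KO_starmut minus KO_MIG) and -0.0995 to 0.125 (KO_starmut minus KO_223mut); the cause was not tested. Centring the arrays and robust eBayes changed no call at either locus. Of 40 calls of other named genes, 27 were lost in at least 1 setting and none changed direction. Most of these calls are of genes chosen by correlation with Mir223 on these arrays. For those genes, neither the calls nor their steady direction is a test. With the block Xpo5, uncalled without it, passed in KO_223mut against WT_MIG (0.33, limma adjusted p = 0.0371). Sun1, Chd7 and Polr1d passed there too. They were chosen by correlation with Mir142 on these arrays, so this is no test of them.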
